A study of Mus musculus with 10 samples.

Results

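The 32 genes described here encode the machinery that moves calcium in heart muscle cells. They were chosen by name, for function, as calcium channels, release channels, pumps, an exchanger, proteins of the junction between plasma membrane and store, and calcium sensors, and all 32 were found among the 15341 genes of the count table and passed the filter on low counts. RNA was sequenced from whole hearts of 5 male mice described as plasma S1Pless, genotype Sphk1f/-:Sphk2f/-:Mx1Cre+, and of 5 male littermate controls, genotype Sphk1f/-:Sphk2f/-:Mx1Cre-. Both groups thus carried a floxed and a null allele of each of the sphingosine kinase genes, Sphk1 and Sphk2, whose enzymes make sphingosine 1-phosphate (S1P), and the groups differed by Mx1-Cre. This recombinase is driven by an interferon-inducible promoter and acts in blood-forming cells and in some other cells, so the comparison does not separate the loss of plasma S1P from loss of the kinases within heart cells or from the presence of Cre itself. Neither the age of the animals nor any treatment to induce Cre was stated.

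At each heartbeat, calcium enters the muscle cell through L-type channels and opens ryanodine receptors in the sarcoplasmic reticulum, the internal store, which release the calcium that drives contraction. Relaxation follows as the pump SERCA2a returns calcium to the store, under restraint by phospholamban, and as the sodium-calcium exchanger carries calcium out of the cell. IP3 receptors form a slower release route, which in heart muscle cells is linked to signalling from hormone receptors and to calcium around the nucleus.

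The libraries held 16354071 to 20832566 counts in S1Pless hearts and 17204491 to 20202283 in control hearts. Levels are given as CPM, each count taken relative to the library's TMM-scaled total, and 1 count was worth 0.0451 to 0.0658 CPM. Over all 12992 genes tested, 442 were higher and 41 lower in S1Pless hearts (edgeR quasi-likelihood test, Benjamini-Hochberg adjusted over these genes, threshold 0.05, here and throughout). The targeted kinase genes did not pass in whole heart RNA, with log2 fold changes of -0.74 ± 0.28 (SE) for Sphk1 and -0.27 ± 0.11 for Sphk2 and edgeR adjusted p-values of 0.168 and 0.180. Sphk1 rested on 8 to 27 reads per library, which limits the precision of its value. Heart muscle markers were abundant in every library. The atrial markers Myl7 and Sln stood out in 1 library, S1Pless replicate 3, with 167 and 74 reads, whereas each of the remaining hearts of either group had 0 to 3 reads of each gene. Results without S1Pless replicate 3 are also given for Fkbp1b, Cacna1h, Camk2a, Camk2b and Orai1. In each of these genes this heart was the highest or the lowest of the S1Pless hearts. Leaving it out is thus a description and not an independent check.

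Scaled to the exonic length of each gene, the members spanned a wide range, and their order was nearly the same in the groups. Pln, which encodes phospholamban, was the most abundant member, at 1861 ± 82.4 CPM per kb in S1Pless hearts and 2296 ± 136 CPM per kb in control hearts (SD, n = 5 each). Atp2a2, the SERCA2a gene, followed with 1515 ± 309 and 1957 ± 413 CPM per kb. The gap between Pln and Atp2a2 was smaller than the SD of Atp2a2 in control hearts and somewhat larger than it in S1Pless hearts. S100a1, a small calcium-binding protein that raises SERCA2a and ryanodine receptor activity, came next with 592 ± 82.9 CPM per kb in S1Pless hearts and 661 ± 161 in control hearts. Hrc and Casq2, which encode calcium-binding proteins inside the store, lay at 391 ± 58.9 and 281 ± 38.7 CPM per kb in S1Pless hearts and at 462 ± 27.7 and 318 ± 34.1 in control hearts. Calm2, Trdn, Ryr2 and Calm3 formed a level group between 51.5 and 63.5 CPM per kb in S1Pless hearts and between 58.5 and 61.6 in control hearts, and the SD of Ryr2 alone covered the others. The lowest member was Fkbp1b in control hearts, at 1.00 ± 0.260 CPM per kb, and Cacna1h in S1Pless hearts, at 1.45 ± 0.537. The levels per kb rest on the exon union of an older annotation than the counts, so they place genes in broad order only.

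**Figure D1:**
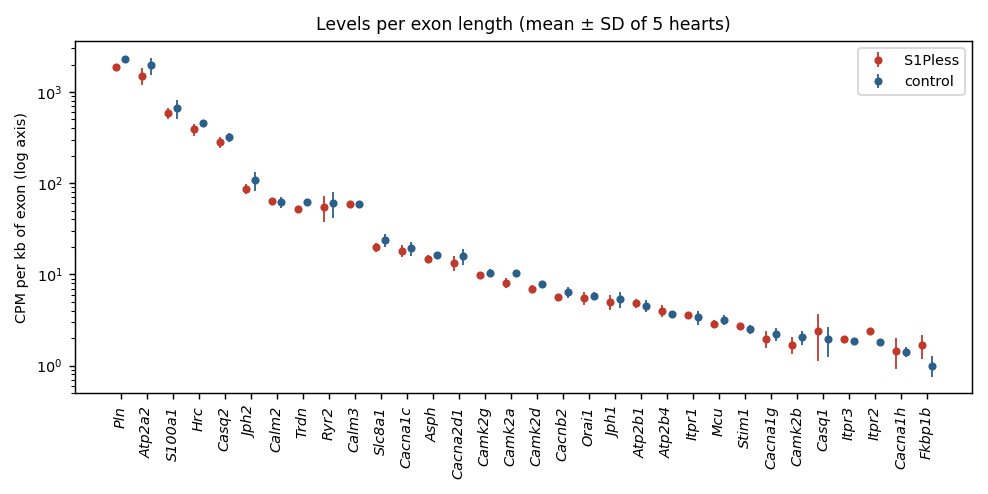
Mean level of each member per kb of exon on a log axis, with S1Pless hearts (red) left of control hearts (blue) and bars for the SD of 5 hearts. Pln and Atp2a2 lie highest, and Fkbp1b, Cacna1h, Itpr2 and Itpr3 are among the lowest.

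Of the 32 members, 1 passed the threshold: Itpr2 was higher in S1Pless hearts. That is 3.12% of the members, against 3.72% of all genes tested in either direction, so the share of members called was near that of the genome. The groups did not overlap for 3 members (Itpr2, Trdn and Pln), 9.38% of them, against 6.35% of all genes. In the direction called, 3.40% of all genes were higher, while 0 members were lower against 0.316% of all genes. With an unadjusted p below 0.05, 6 members were found (Itpr2, Fkbp1b, Trdn, Pln, Slc8a1 and Camk2a), against 19.9% of all genes tested. DESeq2 called Itpr2 higher and Pln, Trdn and Camk2a lower. It also called more genes over the whole table, 1019 in either direction against 483 in the edgeR test. Of the members, 21 had a log2 fold change below 0 and 11 above, with a median of -0.15, beside 6829 of 12992 genes (52.6%) below 0 and a median of -0.01 over all genes. Scaled by library totals without TMM factors, the fold changes of all genes shifted upward by a median of 0.136 on the log2 scale. The member median was then -0.01 against 0.12 over all genes, with 17 members below 0, so the count below 0 moved with the scaling while the gap between the medians stayed about as large. Among 14 other heart muscle markers, such as Myh6 and Tnnt2, all 14 had log2 fold changes below 0 with a median of -0.19 and 0 passed the threshold. Their summed level was 60731 to 78010.3 CPM in S1Pless hearts and 72698 to 88441 CPM in control hearts. These sums overlapped between the groups. CPM are relative to the library's total. In RNA of whole hearts, fewer muscle cells, less RNA per muscle cell and more RNA from other cells therefore cannot be told apart.

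**Figure D2:**
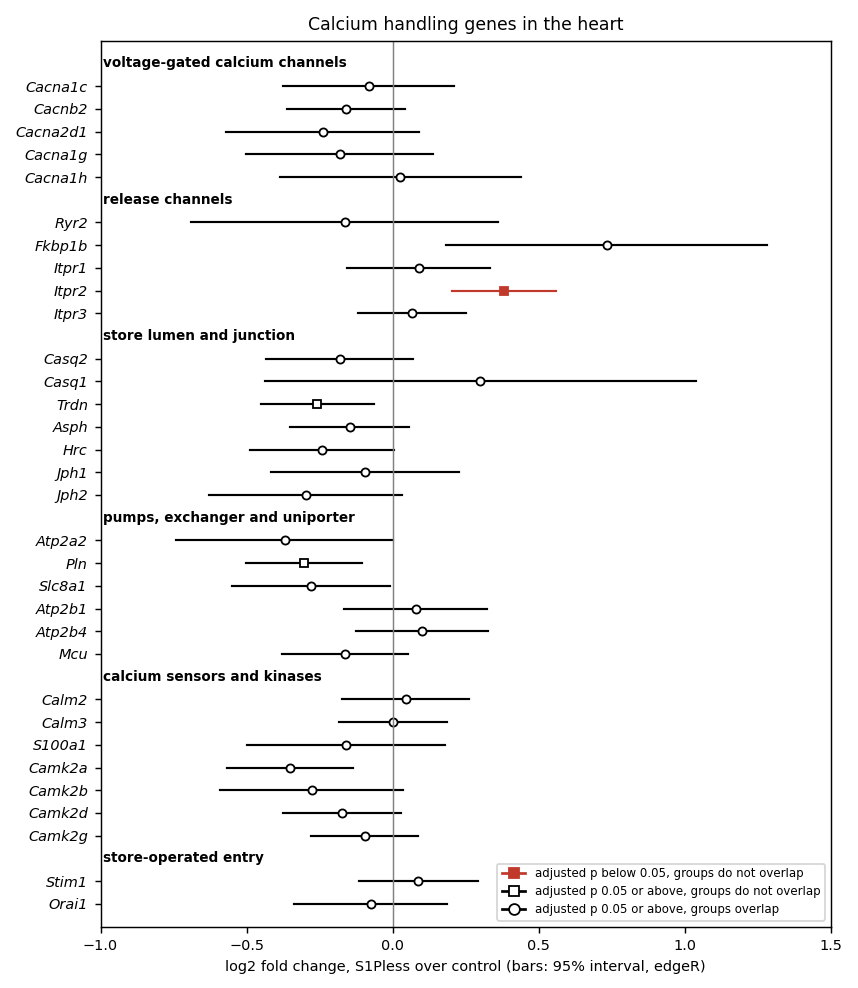
Log2 fold change of each member, S1Pless over control, with 95% intervals from edgeR, grouped by function. Only Itpr2 (red square, 0.38) passed the threshold, and for Pln and Trdn (open squares) the groups did not overlap although the adjusted p-values were 0.0890 and 0.131.

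The release channels held the called gene. Itpr2 (ENSMUSG00000030287) encodes the type 2 IP3 receptor, the main IP3 receptor of rodent heart muscle cells. It had 34.1, 31.6, 35.2, 36.8 and 39.1 CPM in the S1Pless hearts, against 27.4, 26.4, 24.3, 29.4 and 28.4 CPM in the control hearts. Every S1Pless heart lay above the highest control heart, a separation in this direction that 4.53% of all genes tested showed. The log2 fold change was 0.38 ± 0.083 (SE), or 1.30-fold, with a 95% interval of 0.20 to 0.56 on the log2 scale and an edgeR adjusted p of 0.0252. The call was lost without S1Pless replicate 5 (adjusted p = 0.0755) and without control replicate 2, 3 or 4 (0.0538, 0.0659 and 0.0521), while the log2 fold change stayed between 0.33 and 0.42 whichever heart was left out. It was also lost with a block of neighbouring title numbers (log2 fold change 0.36, adjusted p = 0.103). Itpr2 is also expressed outside muscle, and markers of other cells moved in the same hearts. The 14 macrophage markers, 7 of them called higher, summed to 551 to 1370.1 CPM in S1Pless hearts and 355 to 459 CPM in control hearts, while the 12 endothelial markers, 1 of them called, summed to 1696 to 2031 CPM in S1Pless hearts and 1675 to 1913 CPM in control hearts. The 10 fibroblast markers, 1 of them called higher and all 10 with log2 fold changes above 0 (median 0.39), summed to 1274 to 1929 CPM in S1Pless hearts and 1058 to 1232 CPM in control hearts. The macrophage and the fibroblast sums did not overlap between the groups, and the endothelial sums did. The part of these cells in the difference in Itpr2 was not tested.

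The other IP3 receptor genes gave no call. Itpr1 had 62.7 to 71.2 CPM in S1Pless hearts and 47.1 to 75.6 CPM in control hearts, a log2 fold change of 0.09 with a 95% interval of -0.15 to 0.33. Itpr3 had 16.1 to 19.2 CPM in S1Pless hearts and 15.5 to 18.4 CPM in control hearts, a log2 fold change of 0.07 with an interval of -0.12 to 0.25. Per kb of exon, Itpr2 had 2.39 ± 0.189 CPM in S1Pless hearts and 1.84 ± 0.131 in control hearts. Itpr3 had 1.96 ± 0.136 in S1Pless hearts and 1.88 ± 0.148 in control hearts. Levels per kb place genes in broad order only, so Itpr2 and Itpr3 are not ranked against each other. Itpr1 was the highest of the IP3 receptors per kb in both groups. The ratio of Itpr1 to Itpr2 reads was 1.89, 1.98, 1.81, 1.93 and 1.77 in the S1Pless hearts, against 2.25, 1.78, 2.37, 2.58 and 2.46 in the control hearts. Control replicate 2 lay within the S1Pless range and the other control hearts above it. The mean log2 ratio was 0.27 lower in S1Pless hearts (exact two-sided permutation p = 0.0397, adjusted p = 0.508 over 16 ratios).

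Ryr2, the ryanodine receptor and main release channel, showed no difference larger than its spread. It had 892, 1247, 1685, 2054 and 1994 CPM in S1Pless hearts, against 1189, 1669.9, 1345, 2043 and 2572 CPM in control hearts. The groups overlapped over most of their range, and the highest heart exceeded the lowest 2.30-fold in S1Pless and 2.16-fold in control animals. The log2 fold change was -0.16 with a 95% interval of -0.69 to 0.36. Fkbp1b encodes calstabin-2 (FKBP12.6), which binds the ryanodine receptor and steadies its closed state. It had 1.85, 1.15, 2.44, 1.46 and 1.61 CPM in S1Pless hearts, against 1.25, 0.860, 0.958, 0.708 and 1.34 CPM in control hearts. Of the S1Pless hearts, 4 lay above all control hearts and replicate 2 lay among them. Its log2 fold change of 0.73 ± 0.26 was the largest in size of all members, but it rested on 13 to 42 reads per library and did not pass (edgeR adjusted p = 0.129, 95% interval 0.18 to 1.28). It passed only with library totals alone (0.87, adjusted p = 0.0427), and without S1Pless replicate 3, the library with atrial transcripts, the log2 fold change was 0.58 (adjusted p = 0.237).

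Of the 6 pumps and transporters 0 passed the threshold, and 4 had log2 fold changes below 0, with a median of -0.22 over the 6. Pln (ENSMUSG00000038583), the brake on SERCA2a, had 4951, 5447, 5059.8, 5293 and 4923 CPM in S1Pless hearts, against 6259, 6021, 6395, 6051 and 6949.6 CPM in control hearts. Every S1Pless heart lay below the lowest control heart, as in 1.82% of all genes tested, and each group stayed within a narrow span (1.11-fold and 1.15-fold between its lowest and highest heart). The log2 fold change was -0.30 ± 0.093, with a 95% interval of -0.50 to -0.10 and an edgeR adjusted p of 0.0890. DESeq2 called it (adjusted p = 0.000203), but it passed in only 2 of 22 alternative fits and in 0 of the 10 that left out a single heart. Pln shares 141 exonic bases with a gene on the opposite strand, and the strand setting of the counting was not stated. Atp2a2 had 6773, 7699.6, 10373, 11178 and 10039.7 CPM in S1Pless hearts, against 8692, 13787, 9773, 12963 and 14288 CPM in control hearts. The groups overlapped, with control replicates 1 and 3 inside the S1Pless range, and the log2 fold change of -0.37 ± 0.17 had an interval of -0.74 to 0.00 (adjusted p = 0.253). Slc8a1, the sodium-calcium exchanger NCX1, had 318 to 433 CPM in S1Pless hearts and 377 to 543 CPM in control hearts, with a log2 fold change of -0.28 ± 0.13 (adjusted p = 0.234). The balance of phospholamban to pump transcripts did not separate the groups: Pln had 0.474 to 0.731 reads per Atp2a2 read in S1Pless hearts and 0.437 to 0.720 in control hearts (exact two-sided permutation p = 0.595, adjusted p = 0.780 over 16 ratios).

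**Figure D3:**
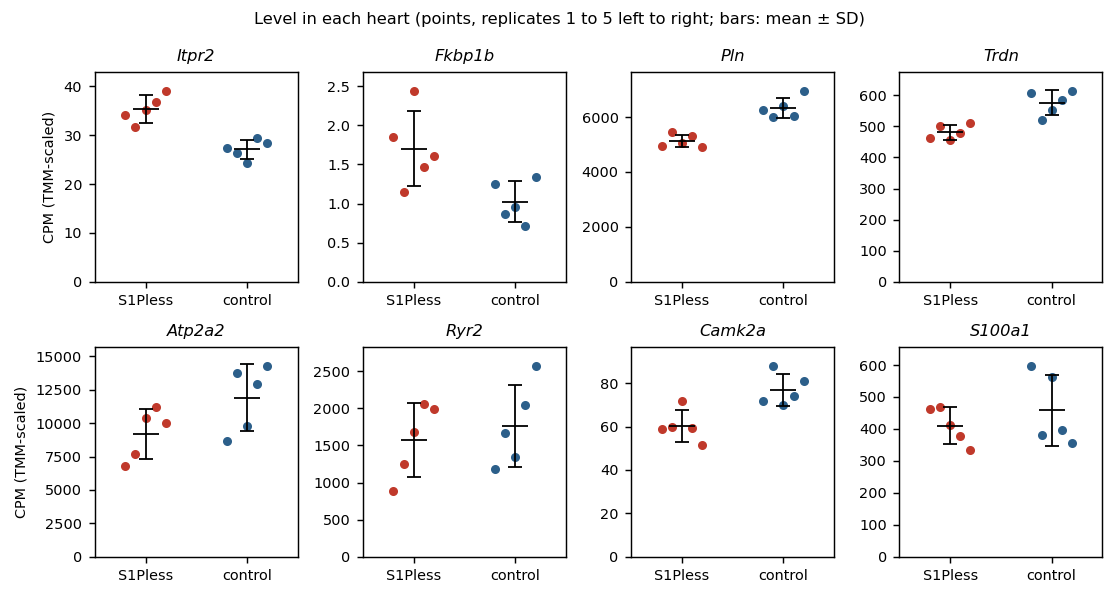
CPM of 8 members in each heart, S1Pless (red) left of control (blue), with the mean and SD in black and the axis starting at 0. Itpr2 lies higher and Pln and Trdn lie lower in every S1Pless heart than in any control heart, while the groups overlap in the other panels.

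The plasma membrane pumps and the mitochondrial uniporter showed small fold changes. Atp2b1 and Atp2b4, which encode calcium pumps of the plasma membrane, had log2 fold changes of 0.08 and 0.10 with 95% intervals of -0.17 to 0.32 and -0.13 to 0.33. Mcu, the pore of the channel by which mitochondria take up calcium, had 17.6 to 22.4 CPM in S1Pless hearts and 19.3 to 26.0 CPM in control hearts, a log2 fold change of -0.16 with an interval of -0.38 to 0.05.

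The region upstream of Itpr2, the called member, is shown beside that of Pln, the most abundant member with groups that did not overlap. Each window holds 250 bases before and 50 after the RefSeq transcription start in build GRCm38.p6, read along the gene's strand, at chr6:146502174-146502473 (minus strand) for Itpr2 and chr10:53337436-53337735 (plus strand) for Pln. Capitals mark matches on either strand to 4 motifs: the TATA box TATAAA, the GATA motif AGATAA, the E-box CANNTG and the GC box GGGCGG.
Itpr2: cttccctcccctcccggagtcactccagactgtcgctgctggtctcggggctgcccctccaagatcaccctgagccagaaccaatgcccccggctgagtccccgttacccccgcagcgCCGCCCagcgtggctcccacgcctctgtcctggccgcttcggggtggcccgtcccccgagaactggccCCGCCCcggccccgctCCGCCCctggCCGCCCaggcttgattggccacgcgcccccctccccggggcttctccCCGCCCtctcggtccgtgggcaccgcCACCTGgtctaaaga
Pln: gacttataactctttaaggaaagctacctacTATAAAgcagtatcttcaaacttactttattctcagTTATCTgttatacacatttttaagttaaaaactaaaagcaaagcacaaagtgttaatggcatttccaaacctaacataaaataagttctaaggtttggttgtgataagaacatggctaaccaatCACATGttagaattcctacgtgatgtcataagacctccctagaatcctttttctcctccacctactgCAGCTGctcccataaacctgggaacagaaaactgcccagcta
The Itpr2 window had a GC content of 73.3%, 5 GC boxes and 1 E-box. The Pln window had a GC content of 36.0% and held 1 TATA box, 1 GATA motif, 2 E-boxes and 0 GC boxes. No matches overlapped one another in either window. Of all 32851 promoter windows in the table, 35.7% held a GC box, 13.6% the TATA box, 11.2% the GATA motif and 72.3% an E-box. For 22 of the 32 members a window was available, 27 windows in all. Their median GC content was 65.3%, against 52.7% over all windows. Of the 27, 18 held a GC box (66.7%), 1 the TATA box (3.7%), 3 the GATA motif (11.1%) and 20 an E-box (74.1%). A match to these letters is a description of the window and not a measured binding site.

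The proteins of the store lumen and the junction gave no call. Trdn encodes triadin, which ties calsequestrin to the ryanodine receptor. It had 461, 501, 456, 478 and 511 CPM in S1Pless hearts, against 609, 519, 551, 585 and 614 CPM in control hearts. The groups did not overlap, with control replicate 2 close to the highest S1Pless heart, and the log2 fold change of -0.26 ± 0.090 had an edgeR adjusted p of 0.131 and a DESeq2 adjusted p of 0.00395. Trdn passed in only 1 of 22 alternative fits, that with DESeq2. Casq2, the calsequestrin of heart muscle, had 662 to 936 CPM in S1Pless hearts and 762 to 1004 CPM in control hearts, a log2 fold change of -0.18 with a 95% interval of -0.43 to 0.07. Hrc, the histidine-rich calcium-binding protein of the lumen, had 838 to 1206 CPM in S1Pless hearts and 1082 to 1279 CPM in control hearts, a log2 fold change of -0.24 with an interval of -0.49 to 0.00. Jph2, which holds the store membrane against the T-tubule, had 312 to 413 CPM in S1Pless hearts and 305 to 561 CPM in control hearts, a log2 fold change of -0.30 with an interval of -0.63 to 0.03. The related Jph1, better known from skeletal muscle, had a log2 fold change of -0.10. Asph had -0.15; its locus yields both junctin and an aspartyl hydroxylase, which counts per gene do not separate, and it shares 2302 exonic bases with a gene on the opposite strand. Casq1, the calsequestrin of skeletal muscle, varied more between hearts than any other member, from 1.99 to 8.58 CPM in S1Pless hearts and from 2.45 to 5.96 CPM in control hearts. Of 11 skeletal muscle markers, Myh4 was the only one at 0 counts in all libraries. Tnni2, a troponin of fast skeletal muscle, had 40, 10, 21, 15 and 31 reads in S1Pless hearts and 22, 17, 34, 17 and 10 reads in control hearts. It was highest in S1Pless replicate 1 and control replicate 3, as was Casq1, but S1Pless replicate 5, the lowest in Casq1, was second to replicate 1 in Tnni2. The part of skeletal muscle in the Casq1 values was not tested.

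The voltage-gated channels showed no call and no group separation. Cacna1c, the pore of the L-type channel CaV1.2, had 309 to 456 CPM in S1Pless hearts and 324 to 466 CPM in control hearts, a log2 fold change of -0.08 with a 95% interval of -0.37 to 0.21. Its accessory subunits Cacnb2 and Cacna2d1, which carry the pore to the membrane and set its current, had log2 fold changes of -0.16 and -0.24 with intervals of -0.36 to 0.04 and -0.57 to 0.09. The T-type channels serve pacing and the fetal heart. Cacna1g had 13.4 to 24.04 CPM in S1Pless hearts and 17.6 to 25.6 CPM in control hearts, and Cacna1h had 10.2 to 23.3 CPM in S1Pless hearts and 11.98 to 16.5 CPM in control hearts; it shares 158 exonic bases with a gene on the opposite strand. The highest Cacna1h value was that of S1Pless replicate 3, the library with Myl7 and Sln reads, at 23.3 CPM against at most 12.9 CPM in the other S1Pless hearts. With this heart the log2 fold change of Cacna1h was 0.03, and without it -0.22 (adjusted p = 0.357).

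Calmodulin, which senses calcium for the channels and kinases, had transcript levels with small fold changes between the groups. Calm3 had 128 to 149 CPM in S1Pless hearts and 133 to 159 CPM in control hearts, a log2 fold change of 0.00 with a 95% interval of -0.18 to 0.19. Calm2 had 83.2 to 98.0 CPM in S1Pless hearts and 74.8 to 104 CPM in control hearts, a log2 fold change of 0.04 with an interval of -0.17 to 0.26. The calmodulin genes have close copies elsewhere in the genome, and how multiply mapping reads were handled was not stated, so these counts are uncertain. The CaMKII kinases, which calmodulin activates, had log2 fold changes below 0, except that Camk2g came to 0.04 when scaled by library totals alone. Camk2a had 58.7, 59.8, 71.9, 59.5 and 51.4 CPM in S1Pless hearts, against 71.6, 87.9, 70.1, 74.0 and 81.0 CPM in control hearts. Replicate 3 was the only S1Pless heart within the control range. The log2 fold change was -0.35 ± 0.10, with an edgeR adjusted p of 0.0684, and it passed without S1Pless replicate 3 (-0.42, adjusted p = 0.0348) and in DESeq2 (adjusted p = 0.0135). Of 22 alternative fits, Camk2a passed in only 3, and in 1 of the 10 that left out a single heart. Camk2d, the main CaMKII gene of heart muscle, had 132 to 174 CPM in S1Pless hearts and 165 to 192 CPM in control hearts, a log2 fold change of -0.17 with an interval of -0.38 to 0.03. Camk2b and Camk2g had log2 fold changes of -0.28 and -0.10 with edgeR adjusted p-values of 0.317 and 0.567. Without S1Pless replicate 3, Camk2b came to -0.40 (edgeR adjusted p = 0.113). Of store-operated entry, Stim1, the sensor of store filling, had a log2 fold change of 0.09 with an interval of -0.12 to 0.29. Orai1, the channel that Stim1 opens, had -0.07 with an interval of -0.34 to 0.19. Orai1 came to 0.03 without S1Pless replicate 3 (edgeR adjusted p = 0.909).

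Variation between hearts of one group was as large as the difference between groups for several members and ran alike in them. The lowest 4 hearts in both Ryr2 and Atp2a2 were S1Pless replicates 1 and 2 and control replicates 1 and 3. These were also the 4 hearts with the highest share of mitochondrially encoded transcripts, 27.1 and 27.0% in the S1Pless hearts and 33.4 and 27.1% in the control hearts, while the remaining hearts had 22.7 to 23.8% in the S1Pless group and 23.7 to 25.3% in the control group. S100a1 ran the other way: it had 462, 469.9, 411, 377 and 333 CPM in S1Pless hearts, against 597, 381, 561, 398 and 356 CPM in control hearts, with the highest values in the same 4 hearts and no group separation (log2 fold change -0.16, 95% interval -0.50 to 0.18). Over the 10 hearts its log2 level rose with the mitochondrial share (Pearson r = 0.857, permutation p = 0.00044, adjusted p = 0.0141 over 32 members; Spearman rho = 0.830, permutation p = 0.00463, adjusted p = 0.0741). Without the hearts farthest from the median share, S1Pless replicate 4 and control replicate 1, r was 0.818, and within the 7 hearts of the lower title numbers, whose meaning the labels do not state, it was 0.8755; the other 3 hearts were too few for a value. No other member passed the adjusted threshold in Pearson's r. For Jph1 r was -0.712 (permutation p = 0.0167, adjusted p = 0.266; rho = -0.709, permutation p = 0.0275, adjusted p = 0.220), with -0.698 without the farthest hearts and -0.691 within the 7 hearts. For Stim1 r was -0.601 (permutation p = 0.0631, adjusted p = 0.404; rho = -0.830, permutation p = 0.00414, adjusted p = 0.0741), with -0.766 without the farthest hearts and -0.469 within the 7 hearts. For Ryr2 r was -0.615 (permutation p = 0.0537, adjusted p = 0.404; rho = -0.673, permutation p = 0.0380, adjusted p = 0.243), and for Atp2a2 r was -0.491 (permutation p = 0.149, adjusted p = 0.496; rho = -0.564, permutation p = 0.0960, adjusted p = 0.334). Without the farthest hearts, r for Ryr2 and Atp2a2 was -0.651 and -0.582, and within the 7 hearts of the lower title numbers -0.567 and -0.527. With each group's mean removed from both measures, r over the 10 hearts was -0.880 for Atp2a2, -0.844 for Jph1, -0.821 for Jph2, -0.750 for Ryr2, -0.547 for Stim1 and 0.847 for S100a1, given as a description. The mitochondrial share and the level come from the same libraries, and groups of 5 hearts are too small for a correlation within each. This order of hearts was not particular to the members. The heart muscle genes Tnnc1, Myl2 and Tnni3, which are not members, were also highest in the 4 hearts with the highest share. Cmya5, also not a member, was lowest in them, while Myh6 followed neither order. The cause of this order was not tested.

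**Figure D4:**
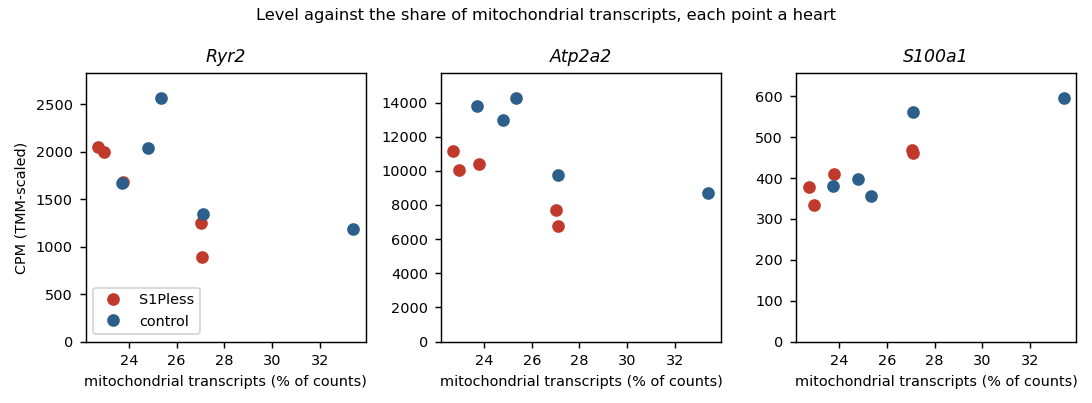
CPM of Ryr2, Atp2a2 and S100a1 in each heart against its share of mitochondrial transcripts, S1Pless in red and control in blue. In the 4 hearts at or above 27.0% Ryr2 and Atp2a2 are lowest and S100a1 is highest.

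With the mitochondrial share as a covariate, a fit chosen after seeing the data, 4 members passed as lower in S1Pless hearts. They were Atp2a2 (log2 fold change -0.56, edgeR adjusted p = 0.0121), Jph2 (-0.43, adjusted p = 0.0298), Camk2a (-0.39, adjusted p = 0.0299) and Pln (-0.30, adjusted p = 0.0378), and Itpr2 passed as higher (0.35, adjusted p = 0.0262). In the same fit 722 genes were higher and 462 lower over the whole table.

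**Figure D5:**
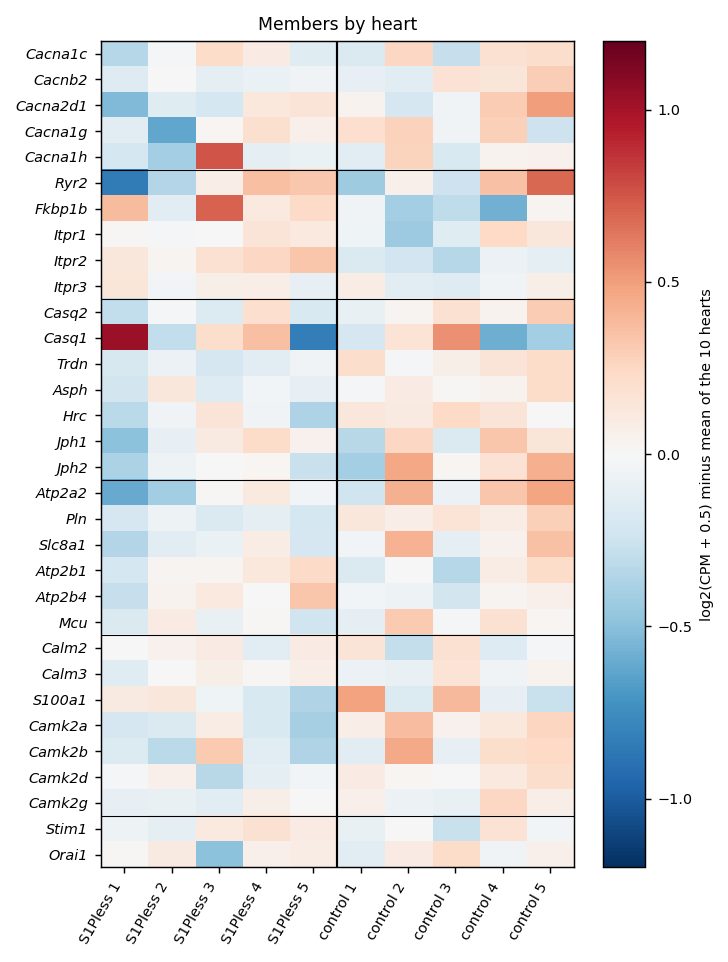
Log2(CPM + 0.5) of each member in each heart minus its mean over the 10 hearts, S1Pless hearts left of the black line and control hearts right of it, with horizontal lines between functions. Ryr2 and Atp2a2 are lowest in S1Pless replicate 1, and Pln is below its mean in all 5 S1Pless hearts and above it in all 5 control hearts.

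Ratios between partner genes, which do not depend on the scaling of a library, gave no call. Of 16 ratios compared, 0 passed at an adjusted p of 0.05 in the exact permutation test, 1 (Itpr1 to Itpr2) had an unadjusted p below 0.05, and the smallest two-sided p that 5 against 5 hearts allow is 0.00794. Fkbp1b had the largest difference, a log2 ratio to Ryr2 0.88 higher in S1Pless hearts (p = 0.0635 in the exact permutation test, adjusted 0.508). The ratio of Casq2 to Ryr2 differed by -0.01 and that of Atp2b4 to Atp2b1 by 0.00 on the log2 scale.

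Among 92 further genes of calcium cycling, 82 were tested, of which 1 was higher and 1 lower, 2.44% against 3.72% of all genes. Their median log2 fold change was -0.08, with 52 of 82 below 0. Bin1 (ENSMUSG00000024381) encodes a membrane-bending protein that shapes T-tubules and helps bring L-type channels to them. It had 17.3, 15.8, 18.8, 15.02 and 20.2 CPM in S1Pless hearts, against 10.7, 11.7, 12.1, 11.8 and 11.96 CPM in control hearts. The groups did not overlap, and the control hearts lay close together. Bin1 rose 1.49-fold (log2 fold change 0.58 ± 0.096, edgeR adjusted p = 0.0109), and it passed in all 22 alternative fits. Bin1 is not particular to muscle, and the macrophage and fibroblast marker sums given above, which did not overlap between the groups, were higher in the same hearts; their part in its rise was not tested.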

How the data were processed

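Whole hearts of 10 male mice, 5 in each group, were sequenced. The authors deposited unnormalized read counts for each Ensembl gene and heart, and the submitters' processing notes name STAR 2.7.8a, featureCounts 2.0.1 and build GRCm39. The annotation release, the strand setting and the handling of reads with several hits were not stated there. Per the labels' protocols, TRIzol and RNeasy kits gave the RNA, and libraries came from a stranded mRNA kit.

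Symbols came from GENCODE M21 (20 identifiers had none), and exon lengths and overlaps from its annotation of an older build. Groups follow the genotype label, and replicates are numbered in accession order and not paired. The comparison used edgeR 4.0.16 (R 4.3.3): filterByExpr (minimum count 10), TMM factors, robust glmQLFit, glmQLFTest, two-sided, Benjamini-Hochberg over 12992 genes, threshold 0.05. Standard errors are the size of the log2 fold change over the square root of F. The 95% intervals use the fit's total degrees of freedom, residual and prior together. Precision was set by the spread between hearts and, for low genes, by counting: the median within-group SD of the members was 0.184 on the log2 scale. Read-count ratios (0.5 added) and correlations (100000 resamples) were tested by permutation of hearts. The test was tried on simulated counts. All pairs of libraries within a group differed beyond counting error (20 pairs, lowest chi-square over its degrees of freedom 10.5). Promoter windows are RefSeq's, GRCm38.p6.

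The members and the further lists were chosen with earlier results of these data known, so no edgeR p-value was adjusted over a list alone. The permutation p-values of the ratios and of the correlations were adjusted only over the 16 ratios and the 32 members. All members are named; of the further calcium genes called, the higher one is named and the lower one is not reported here. Myh6, Tnnt2, Myl7, Sln, Myh4, Tnni2, Tnnc1, Myl2, Tnni3 and Cmya5 were named after their values were seen. Alternatives were RLE and upper-quartile factors, library totals, DESeq2 1.42.0, voom of limma 3.58.1 with quality weights, other filters, title-number covariates and leaving out each heart. Those added after seeing the data were the mitochondrial share as a covariate, leaving out 2 libraries together, and removal of mitochondrial and haemoglobin genes.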

Additional observations from a re-analysis of the deposited data

Results flagged for a closer look

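Among 68 sets of 5 hearts (32 members, Sphk1 and Sphk2, in each group), 3 held a heart whose gap to its neighbour took up most of the group's range (Dixon's ratio above 0.71), where chance gives about 1 in 20. All 3 were in S1Pless replicate 3. Cacna1h was 23.3 CPM there, with the next S1Pless heart at 12.9 CPM. Camk2b was 20.95 CPM, with the next at 15.2 CPM. Orai1 was low, at 8.996 CPM, with the next at 13.0 CPM. This is the library with 167 reads of Myl7 and 74 of Sln, and the part of atrial tissue in these values was not tested.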

How the results depend on the processing

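No paired analysis was possible because the labels call the controls littermates without saying which animals share a litter, and give no replicate numbers. A block of neighbouring title numbers, whose meaning is not stated, was fitted in its place. Itpr2 kept its direction in all 22 alternative fits and passed in 16 of them. It was lost, leaving 0 members higher, with the block of neighbouring title numbers (adjusted p = 0.103) and without control replicate 1 and S1Pless replicate 5 together (0.0676). Leaving out 1 heart at a time gave 0 to 1 members higher and 0 to 1 lower, and 118 to 504 genes higher and 8 to 85 lower over the table. With library totals alone 2 members were higher, and 1420 genes were higher and 13 lower, with 4 further calcium genes higher and 0 lower. DESeq2 found 3 members lower, 4 further calcium genes lower, and 753 genes higher and 266 lower. The title block left 80 genes higher and 8 lower, and 0 further calcium genes lower. With the mitochondrial share as a covariate 4 members were lower, 2 further calcium genes higher and 2 lower, and 722 genes higher and 462 lower. Further calcium genes lower numbered 0 to 1 with a heart left out. The cause of these shifts was not tested. No called gene named here changed its sign; 11 members without a call crossed 0 in at least 1 fit. For low genes depth is the limit: Fkbp1b had 13 to 42 reads and an SE of 0.26 on the log2 scale.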
